A study of Mus musculus with 5375 samples.

Results

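Extravascular tumour cells were compared with intravascular tumour cells taken from the same lungs 1.5 days after injection. The members were all cells of those sort gates that the authors kept: 306 of 384 sorted extravascular cells and 325 of 384 sorted intravascular cells, together 631 of the 1566 tumour cells kept in the whole study. Their reads were summed by mouse and gate, which gave 4 extravascular and 4 intravascular libraries from the same 4 mice. The mice are called m5 to m8 here, and values given for a gate without further comment are in that order.

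The study followed single 4T1 cells, a BALB/c mammary carcinoma line, through arrest in lung capillaries, exit into the tissue, latency and outgrowth. The cells carried GFP and a CellTrace dye and were injected into the tail vein in a pair of injections. The hosts were wild-type female BALB/c mice of 8 to 12 weeks, and every group compared here shared the injection, the dye and the host. A fluorescent antibody to H-2Kd was injected into the blood shortly before the mice were killed, so that stained tumour cells were sorted as intravascular and unstained ones as extravascular. To quantify extravascular cells the study set its gate on lung endothelial cells and moved it where staining differed markedly. It states that its sort gates enriched the rare subpopulations but were not of high purity. The label is thus a gate on staining, and the sort did not observe a cell crossing a vessel wall. Each gate of each mouse filled 1 plate of 96 wells. The comparison asks which transcripts differ between tumour cells still reached by blood and those outside its reach.

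Leaving a capillary requires a tumour cell to loosen its contact with the bloodstream, push between endothelial cells and settle in matrix. The cytoskeleton, matrix proteases and adhesion receptors carry out that movement, and Wnt, Notch and TGF-beta signals are known to shape it. Cells in the blood also meet shear, oxidants, platelets and immune cells, and a tumour cell under interferon replaces catalytic proteasome subunits with inducible ones that favour peptides for MHC class I. Protein synthesis, chaperones and respiration set how much protein and energy a cell has to meet such demands.

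The extravascular libraries held 33199629 to 48076720 estimated reads and the intravascular libraries 39228871 to 49892409, and reads per cell had medians of 510548 to 644082 and 521541 to 590399. Fewer genes were detected in an extravascular cell, with medians of 5721 to 6080.5 per library against 6293.5 to 6608, and the groups did not overlap with each cell thinned to 200000 reads either (4903 to 5262 against 5304 to 5661). Libraries of one gate were pooled and run on one sequencing lane, so gate and lane cannot be told apart. The extravascular library of m5 stood apart from the other 3 in several genes and lists named below. The 8 markers of 4T1 cells summed to 3864 to 5831 CPM (counts scaled to a common library total with TMM factors) in the extravascular and 3057 to 4982 CPM in the intravascular libraries. Epcam, Krt8 and Krt18, epithelial genes of the line, were read in 94.4% to 100% of cells of either gate. Platelet markers summed to 0.97 to 3.25 CPM extravascularly and 0.877 to 12.03 CPM intravascularly, lymphocyte markers to 1.90 to 3.15 and 1.29 to 8.90 CPM, and fibroblast markers to 1.94 to 4.98 and 1.58 to 26.3 CPM. Monocyte and macrophage markers summed to 4.82 to 14.2 and 6.58 to 9.70 CPM, erythroid markers to 2.54 to 6.64 and 2.55 to 5.19 CPM, and endothelial markers to 52.5 to 67.8 and 45.5 to 74.0 CPM. The neutrophil markers summed to 59.9 to 93.7 and 48.2 to 63.3 CPM, nearly all of it Cxcr2, while S100a8 stayed at or below 1.25 CPM. The lung epithelial markers summed to 16.7 to 37.7 and 25.1 to 80.0 CPM, and a read of Sftpc, the surfactant protein of alveolar cells, was present in 3.27% of extravascular and 24.6% of intravascular cells. Among the 79 markers tested, 3 did not overlap between the gates. Of all genes tested, 3.88% did not overlap above and 4.61% below. Pecam1 of the endothelial list was at 4.82 to 8.59 CPM extravascularly and 10.6 to 13.4 CPM intravascularly. It was read in 80.7% of extravascular and 90.15% of intravascular cells. Egfl7 of the same list leaned the other way with overlap, at 11.6 to 20.1 and 9.3 to 12.6 CPM. Cdh5, also of that list, stayed at or below 0.466 CPM. Cxcr2 was at 59.7 to 92.9 and 47.6 to 57.5 CPM. Lyz2 of macrophages was read in 6.46% of intravascular and in 0 of 306 extravascular cells, which allows a share of up to 0.98% by counting error alone. In a pool of the line kept in culture and not injected, endothelial markers summed to 59.4 CPM and neutrophil markers to 80.1 CPM. Lung epithelial markers summed there to 42.7 and monocyte and macrophage markers to 14.3 CPM. Erythroid markers summed to 2.09, fibroblast to 1.75, platelet to 1.57 and lymphocyte markers to 0.84 CPM. No marker of any of the 9 cell type lists passed the test. How far these values come from the line or from other cells, and their part in the results, was not tested.

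Of 19249 genes tested with edgeR's quasi-likelihood test, 183 (0.951%) passed an adjusted p of 0.05, of which 80 (0.416%) were higher and 103 (0.535%) lower in extravascular cells. The fit took its spread from 13 lung libraries, which included latent and proliferative tumour cells of other mice from a later day. Each of the 183 moved the same way in 4 of 4 mice and had gates that did not overlap. All 4 extravascular values lay above all 4 intravascular values in 3.88% of the genes tested and below them in 4.61%. The higher genes differed by 0.41 to 3.72 on the log2 scale, with a median of 0.90, and 33 of them by at least 2-fold. The lower genes had fitted differences with a median of 0.57 and a smallest one of 0.30, and 22 of them were at least 2-fold lower. The largest fitted ones, up to 9.19 for Bmf, belong to genes with no or almost no extravascular reads and are not measured differences. The lower calls lay in more abundant transcripts, at a median of 257 CPM over the 8 libraries against 47.0 CPM for the higher calls, and 17 of the higher but 4 of the lower calls were annotated as pseudogenes. With mouse as a fixed block in a fit of the 8 libraries, 34 genes passed (14 higher, 20 lower), 28 of them among the 183. Fitted without a block the same 8 libraries gave 63, and the 13 lung libraries with mouse as a random block (limma-voom) gave 418. The balance of directions moved with the scaling: 108 higher and 58 lower genes passed with cells thinned to equal reads, 108 and 82 with an offset for transcript length, and 194 and 1852 with uncentred means of the authors' log10 values, on which the median gene was lower by 0.22 on the log2 scale. The number also rested on the libraries, and leaving out one at a time gave 518, 79, 10 and 8 genes for the extravascular libraries of m5 to m8 and 15, 24, 56 and 8 for the intravascular ones. Of the 59 called genes chosen by the naming rule, 4 (Ifitm3, Ppp1r15a, Psmb8 and Rpl13) passed in all 8 of those fits. With mouse as a fixed block 13 of the 59 passed: these 4 and Cct3, Dynll1, Ift172, Igfbp4, Ndufb9, Rps18, Ube2c, Ywhaz and mt-Co2. Of the medians of the 53 gene lists described below, 44 changed sign or moved by over 1.5 times when some one library was left out. The 8 that did neither and had the same sign within each of the 4 mice were those of the respiratory chain, the mitochondrial ribosome, the cytosolic ribosomal proteins and the immunoproteasome (lower) and of glycolysis, the citric acid cycle, the actin cytoskeleton and the splicing factors (higher), though those of the cytosolic ribosome, actin and splicing had the other sign on at least 1 of the log10 scales.

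By number, the respiratory chain had the most lower calls and the most genes without overlap below among the pathway lists. The cytosolic ribosomal proteins had more members below 0 (65 against 60). The immunoproteasome had larger shares called lower (60% against 9.09%) and without overlap below (80% against 54.5%). The nuclear genes of the chain encode the subunits of complexes I to V, which pass electrons to oxygen and make ATP. Of 77 genes tested, 7 fell and none rose, and 42 had every extravascular library below every intravascular one, against 1 the other way. Among the 6720 genes with a mean of at least 10 CPM, 2.34% were called, 1.31% lower and 1.03% higher, and 8.2% and 6.96% did not overlap below and above. The summed level was 44525 to 47633 CPM in the extravascular libraries and 52369 to 56126 CPM in the intravascular libraries, with no overlap. The median log2 fold change was -0.26, against -0.01 over all genes tested, and within m5, m6, m7 and m8 it was -0.24, -0.23, -0.26 and -0.26. DESeq2 passed 29 lower and 4 higher members of the list (3.29% and 3.59% over all genes tested), and the fit with mouse as a fixed block 2 lower and 1 higher. The number of lower calls without one library ran from 0 to 17, with 17 lower and 4 higher without the extravascular library of m5.

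Complex I, the NADH dehydrogenase through which electrons enter the chain, held 5 of the 7 lower calls. The split by complex was made after the values had been seen. Of 37 complex I subunits 5 fell, 32 had a log2 fold change below 0 and 22 did not overlap, and their sum was 15376 to 17126 CPM in the extravascular libraries and 19475 to 21197 CPM in the intravascular libraries. Ndufa8 (GRCm38 chr2:36036326-36049406, minus strand), an accessory subunit, stood at 327, 329.9, 289 and 310.1 CPM in the extravascular libraries and 460.4, 460, 466 and 419 CPM in the intravascular libraries. All extravascular values lay below all intravascular ones, and Ndufa8 fell (log2 fold change -0.52, SE 0.089, adjusted p = 0.0302). Ndufb10 fell from 387 ± 20.1 to 276 ± 16 CPM (mean ± SD over 4 libraries, log2 fold change -0.49, adjusted p = 0.0305), and Ndufs3, a core subunit of the matrix arm, fell from 238 ± 19 to 172 ± 13 CPM (log2 fold change -0.46, adjusted p = 0.0379). Ndufb9, the most abundant of the called subunits, stood at 2789, 2495, 2252 and 2354 CPM in the extravascular libraries and 3743, 3026, 3487 and 3320.4 CPM in the intravascular libraries. It fell (log2 fold change -0.46, SE 0.094, adjusted p = 0.0435), with a predicted gene on the same strand that overlaps it and could share its reads. Ndufv1, the flavoprotein that binds NADH, went the other way without passing the test (0.61, adjusted p = 0.158).

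All 11 nuclear subunits of complex IV, cytochrome c oxidase, had log2 fold changes below 0, from -0.41 for Cox5a to -0.06 for Cox8a, and 7 did not overlap, though none passed the test. Of 15 subunits of complex V, the ATP synthase, 8 did not overlap below, and the median was -0.24. Its catalytic subunits Atp5a1 and Atp5b had values of 0.66 and 0.73 in the opposite direction, with adjusted p of 0.0891 and 0.0716. Complex III, which hands electrons to cytochrome c, had 1 lower call and a median of -0.05 over 9 genes, with Uqcrb lower at -0.52 (adjusted p = 0.0451) and Uqcrc2 at 0.97 (adjusted p = 0.0608). The 4 subunits of complex II, which is shared with the citric acid cycle, had a median of 0.20. Cycs, the soluble carrier cytochrome c, fell from 222 ± 16 to 133 ± 29 CPM (log2 fold change -0.73, adjusted p = 0.0439). Of the 13 genes carried by mitochondrial DNA only mt-Co2, a core subunit of complex IV, passed, at 6063, 5899, 6146 and 5553 CPM in the extravascular libraries and 8143, 8175, 9642 and 7557 CPM in the intravascular libraries. It fell (log2 fold change -0.50, SE 0.097, adjusted p = 0.0379), and the median of the 13, from -0.15 to -0.01 with one library left out, -0.02 with the offset for length described below and 0.18 within m5, was -0.10.

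**Figure D1:**
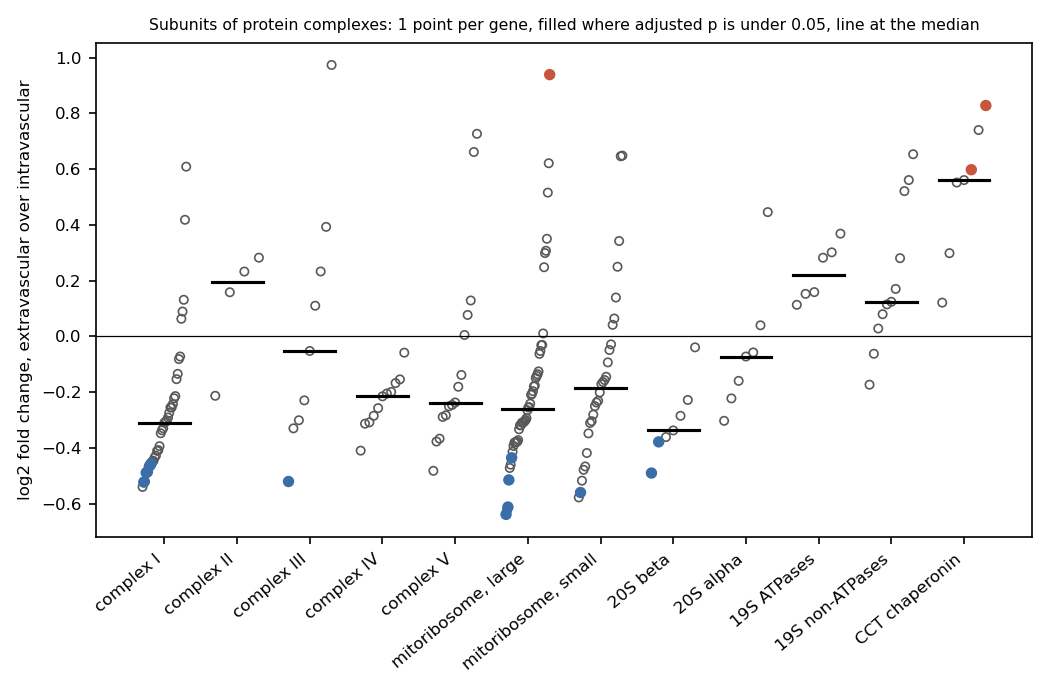
The y axis is the log2 fold change, extravascular over intravascular, of each subunit of respiratory complexes I to V, the mitochondrial ribosome, the proteasome and the CCT chaperonin, with 1 point per gene, filled where the adjusted p was under 0.05 and with a line at the median. Of the complex I subunits 32 of 37 lie below 0, as do all 11 of complex IV and all 7 of the 20S beta ring, and all 7 CCT subunits lie above 0.

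The mitochondrial ribosome, which translates the proteins encoded by mitochondrial DNA, leaned to lower values as well. Of its 76 proteins 5 fell and 1 rose, 61 were below 0, 31 did not overlap below and 1 above, and the median log2 fold change was -0.24. The summed level was 12208 to 13074 CPM in the extravascular libraries and 14637 to 15875 CPM in the intravascular libraries, again without overlap. Mrpl51 of the large subunit stood at 235, 262, 239 and 226 CPM in the extravascular libraries and 447, 346, 354 and 349.6 CPM in the intravascular libraries. The intravascular library of m5 was the highest, but the other 3 also lay above every extravascular value (log2 fold change -0.64, SE 0.11, adjusted p = 0.0305). Mrpl14 fell from 302 ± 14 to 212 ± 23 CPM (log2 fold change -0.52, adjusted p = 0.0326) and Mrps34 of the small subunit fell from 183 ± 8.4 to 125 ± 19 CPM (log2 fold change -0.56, adjusted p = 0.0385), the latter beside Nme3 and Mapk8ip3, whose gene models overlap it. Mrpl9 rose, from 22.2, 23.3, 34.2 and 23.2 CPM in the intravascular libraries to 52.5, 51.5, 47.6 and 45.7 CPM in the extravascular libraries (log2 fold change 0.94, SE 0.16, adjusted p = 0.0292). Its gene overlaps Oaz3 on the other strand, and the counting is not stated to use strand. No member of the list passed with mouse as a fixed block (for these 4 genes, adjusted p from 0.0585 to 0.0815), and without the extravascular library of m5 8 members of the list were lower and 3 higher. Over the 8 fits with one library left out the lower calls ran from 0 to 8 and the higher from 0 to 3.

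**Figure D2:**
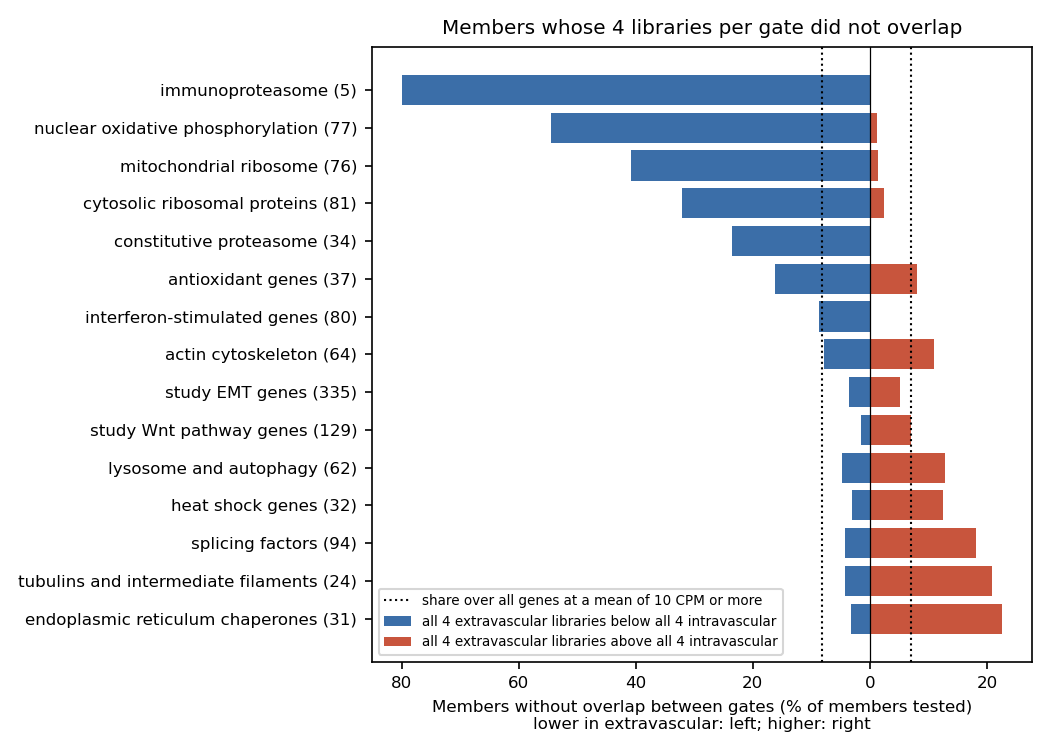
Bars give the percent of the tested members of 15 lists (number of members in brackets) whose 4 extravascular libraries all lay below (left) or all above (right) the 4 intravascular ones, and dotted lines give the same over all genes with a mean of at least 10 CPM, 8.2% and 6.96%. Of the lists drawn the immunoproteasome, with 4 of 5, the respiratory chain, with 42 of 77, and the mitochondrial ribosome, with 31 of 76, have the longest bars to the left.

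Transcript length moved with the gate. Split into 5 groups of nearly equal size by the median length of their annotated transcripts, genes at 10 CPM or more had a median log2 fold change of -0.11 in the shortest group (78 to 819 bases), 0.01 in the second, 0.16 in the third (1366 to 2109 bases), 0.10 in the fourth and 0.01 in the longest. In the shortest group 46 genes were lower and 16 higher, and in the third 6 were lower and 28 higher. Genes called lower had a median length of 859 bases and genes called higher 1513, against 1695 over all genes at these levels. Most respiratory chain genes (71 of 77) are shorter than that. After an offset for length had been fitted, the median of the respiratory chain was -0.17 with 6 lower calls and 1 higher, and that of the mitochondrial ribosome -0.20 with 4 lower and 1 higher. The 6 respiratory chain genes at or over the median length had a median of -0.08 without the offset, with 3 above and 3 below 0. The 20 mitochondrial ribosome genes at or over the median length had a median of -0.19 without the offset. Ndufa8, Ndufb10, Ndufs3, Mrpl51 and Mrpl14 passed with the offset as well, while Ndufb9 (0.0513), mt-Co2 (0.0659) and Mrps34 (0.0530) had adjusted p above the threshold. How far length itself, RNA quality or library preparation took part in these differences was not tested.

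**Figure D3:**
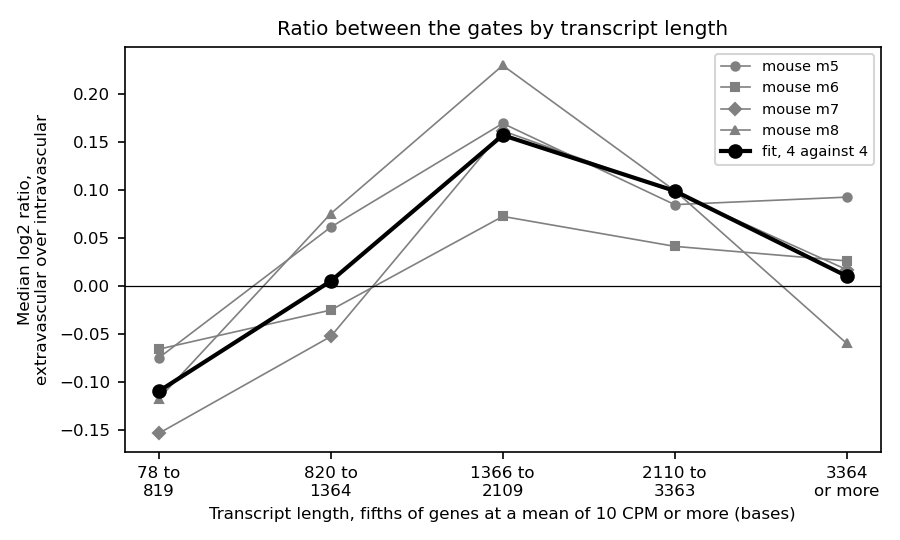
The y axis is the median log2 ratio, extravascular over intravascular, of genes with a mean of at least 10 CPM in 5 groups by transcript length (bases, x axis), in black for the fit over 4 against 4 libraries and in grey within each mouse. The shortest group lies below 0 and the third one above 0 in all 4 mice.

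The proteins of the cytosolic ribosome, which are short and abundant transcripts, had a smaller difference. Of 81 tested 3 fell and none rose, 26 did not overlap below and 2 above, and the median was -0.12, which became -0.03 with the offset for length, under which 3 members were lower and 3 higher, and 0.16 with centred means of log10 values. Their sum, 126780 to 137250 CPM against 135970 to 147090 CPM, overlapped between the gates. Rpl13 of the large subunit (GRCm38 chr8:123102350-123105244, plus strand) stood at 2468, 2422, 2264 and 2274 CPM in the extravascular libraries and 3233, 2993, 3063 and 3196 CPM in the intravascular libraries. It fell (log2 fold change -0.41, SE 0.046, adjusted p = 0.00321) and passed in every fit with a library left out and with mouse as a fixed block (adjusted p = 0.0469). Rpl15 fell from 1237 ± 100.1 to 860.1 ± 60.3 CPM (log2 fold change -0.52, adjusted p = 0.0137) and Rps18 of the small subunit from 1842 ± 66 to 1369.5 ± 139 CPM (log2 fold change -0.43, adjusted p = 0.0253). Ribosomal protein genes have many processed copies in the genome that share their reads, so single values are uncertain. The ribosome biogenesis genes, which make and fold ribosomal RNA, had a median of 0.14, the other sign under the log10 scales, and of 83 only Nop10 passed, which fell from 390 ± 19 to 289.6 ± 26 CPM (log2 fold change -0.43, adjusted p = 0.0491). Nop10 did not pass with mouse as a fixed block or with the offset for length.

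The immunoproteasome had 3 of its 5 genes called lower outside the vessels. Its catalytic subunits Psmb8, Psmb9 and Psmb10 replace constitutive ones under interferon, and Psme1 and Psme2 form the 11S cap that speeds peptide release. Of these 5 genes 3 fell, all 5 had log2 fold changes below 0 and 4 did not overlap, with a median of -0.62 and sums of 1008 to 1182 CPM in the extravascular libraries and 1495 to 1785 CPM in the intravascular libraries. Psmb8 (GRCm38 chr17:34197721-34201454, plus strand) stood at 102, 108, 72.7 and 102 CPM in the extravascular libraries and 184, 211, 241 and 213 CPM in the intravascular libraries. The highest extravascular value was below the lowest intravascular one, and Psmb8 fell 2.20-fold (log2 fold change -1.14, SE 0.13, adjusted p = 0.00321, and 0.0482 with mouse as a fixed block). It was read in 62.7% of extravascular and 86.8% of intravascular cells. In sums over cells, fewer cells with a transcript and less of it per cell cannot be told apart. The gene overlaps Gm20496, so reads of the pair may be shared.

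Psmb10 stood at 212, 222, 182 and 199 CPM in the extravascular libraries and 285, 323, 341 and 305 CPM in the intravascular libraries. The gates were apart, and Psmb10 fell (log2 fold change -0.62, SE 0.090, adjusted p = 0.0164). Psme2 fell from 763 ± 82 to 553 ± 38 CPM (log2 fold change -0.46, adjusted p = 0.0413). Psmb9 had 10.6 ± 4.0 CPM against 20.1 ± 3.6 CPM (extravascular against intravascular, log2 fold change -0.92, SE 0.25, adjusted p = 0.0945) and Psme1 211 ± 41 CPM against 277 ± 26 CPM (log2 fold change -0.39, adjusted p = 0.162), neither past the threshold. Psmb8 alone of the 5 passed with mouse as a fixed block, where Psmb10 and Psme2 had adjusted p of 0.0582 and 0.0529. Leaving out one library left between 1 and 3 of the 3 calls. With the offset for transcript length the median of the list was -0.68 and the 3 genes passed.

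The constitutive proteasome as a whole had a median of 0.03 over 34 genes, with 2 lower calls and 8 genes (23.5%, against 8.2% of genes at 10 CPM or more) that did not overlap below. Its parts, split after the values had been seen, differed in sign. All 7 beta subunits of the 20S core, the ring that holds the proteolytic sites, were below 0, with 2 calls and a sum of 4281 to 4797 CPM in the extravascular libraries and 5568 to 6009 CPM in the intravascular libraries. Psmb2 fell from 991 ± 53 to 705 ± 79.5 CPM (log2 fold change -0.49, adjusted p = 0.0305) and Psmb6 fell from 942 ± 31 to 724 ± 42 CPM (log2 fold change -0.38, adjusted p = 0.0326). The 6 ATPases of the 19S cap, which unfold substrates, were all above 0 with a median of 0.22 and none called.

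Interferon-stimulated genes, through which cells answer type I and II interferon, had 2 lower and no higher calls among 80 (2.5%, against 0.535% of all genes tested and 1.31% of genes at 10 CPM or more) and a median of -0.25. Of the 80, 7 (8.75%) did not overlap below, which is near the 8.2% of genes at 10 CPM or more and above the 4.61% of all genes tested. Ifitm3 (GRCm38 chr7:141009586-141010770, minus strand), a membrane protein that hinders entry of viruses, was the most abundant, at 1276, 996, 985 and 999 CPM in the extravascular libraries and 1802, 1864, 1992 and 1998 CPM in the intravascular libraries. The extravascular library of m5 was the highest of its gate and still below every intravascular library, and Ifitm3 fell 1.80-fold (log2 fold change -0.85, SE 0.095, adjusted p = 0.00321, and 0.0413 with mouse as a fixed block). Xaf1, which antagonises an inhibitor of apoptosis, fell from 72.4 ± 11 to 43.5 ± 5.1 CPM (log2 fold change -0.73, adjusted p = 0.0435, and 0.102 with the block). Ifitm2, Ifi27, Isg20, Irf9 and Zbp1 did not overlap below either, with log2 fold changes of -0.40, -0.55, -0.52, -0.86 and -2.18 and adjusted p from 0.0545 to 0.194. The list summed to 2649 to 3244 CPM in the extravascular libraries and 3954 to 4581 CPM in the intravascular libraries, but without Ifitm3 the gates overlapped (1664 to 2247 against 2152 to 2589 CPM). The chemokine Cxcl9 had a fitted value of -7.75 (adjusted p = 0.0755) that rested on few cells. Within mice the median of the list was -0.23, 0.40, -0.35 and -0.57, so m6 had the opposite sign. The median also rested on single libraries: it was -0.57 without the extravascular library of m6, -0.16 and -0.13 without those of m7 and m8, and -0.04 without the intravascular library of m8.

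None of the 21 genes of MHC class I and peptide loading passed, and their median was 0.02. H2-K1, which encodes a class I heavy chain of the antigen family that the sorting antibody binds, stood at 225, 339, 340 and 360 CPM in the extravascular libraries and 196, 337, 456 and 281 CPM in the intravascular libraries. The gates overlapped (log2 fold change -0.01, SE 0.21, adjusted p = 1), and its sign depended on the setting. The loading chaperones Calr and Pdia3 had 410.4 ± 72 CPM against 281 ± 58 CPM and 457 ± 56 CPM against 364 ± 29 CPM, with adjusted p of 0.0985 and 0.102.

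The Ifitm3 promoter is shown because of the called interferon-stimulated genes Ifitm3 and Xaf1 it is the one that holds the interferon-stimulated response element, searched as a pair of GAAA runs with 2 free bases between them on both strands from 250 bases before to 50 after the start of the gene. Its match begins at base 3 after the start and a second begins at base 20, both in capitals, in the RefSeq window GRCm38.p6 chr7:141010695-141010994 on the minus strand, read 5′ to 3′.
Ifitm3: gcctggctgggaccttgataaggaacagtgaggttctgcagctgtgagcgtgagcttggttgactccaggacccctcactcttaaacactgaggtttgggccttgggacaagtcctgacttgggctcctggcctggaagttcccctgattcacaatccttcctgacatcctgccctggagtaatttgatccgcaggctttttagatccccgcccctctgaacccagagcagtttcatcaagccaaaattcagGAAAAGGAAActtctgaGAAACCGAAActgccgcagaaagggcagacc
The motif was in 399 of 12047 promoters of tested genes (3.31%), in 27 of 60 interferon-stimulated genes (45%), in 1 of 5 immunoproteasome genes (20%), in 4 of 80 genes called lower (5%) and in none of 45 called higher. The 12047 are the tested genes of the 19249 that had a RefSeq promoter. A match is a run of letters and no measurement of binding.

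Chaperones of the endoplasmic reticulum, which fold secreted and membrane proteins, leaned to higher values outside the vessels. Of 31 genes 2 rose (6.45%, against 1.03% of genes at 10 CPM or more) and none fell. In the list 7 did not overlap above (22.6%) and 1 below (3.23%), against 6.96% and 8.2%. Above 0 were 25 (80.6%, against 48.1% of all genes tested and 53.3% of genes at 10 CPM or more), and the median was 0.29. Dnajb11, the co-chaperone of BiP, stood at 48.6, 53.4, 63.6 and 72.3 CPM in the extravascular libraries and 28.98, 35.6, 38.00 and 28.8 CPM in the intravascular libraries. Every extravascular value was above every intravascular one (log2 fold change 0.86, SE 0.16, adjusted p = 0.0326). Tmed2, a cargo receptor between endoplasmic reticulum and Golgi, rose from 58.8 ± 3.0 to 116 ± 31 CPM (log2 fold change 0.98, adjusted p = 0.0326). Hspa5, which encodes BiP, and Hsp90b1, which encodes GRP94, did not overlap and had 0.45 and 0.38 with adjusted p of 0.0582 and 0.0724. The 3 protein disulfide isomerases listed were above 0, from 0.33 for Pdia3 to 0.70 for Pdia6. Neither called gene passed with mouse as a fixed block (adjusted p = 0.0740 and 0.0643), and the calls ran from 0 to 5 with one library left out, 5 without the extravascular library of m5. The median was above 0 in 19 of 19 alternatives.

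Cytosolic chaperones had 3 higher and no lower calls among 32 heat shock genes, with a median of 0.21. The share called higher was 9.38%, against 1.03% of genes at 10 CPM or more. The shares that did not overlap above and below were 12.5% and 3.13%, against 6.96% and 8.2%. A pair of the calls belonged to the CCT chaperonin, a ring that folds actin and tubulin, whose 7 tested subunits were all above 0 with a median of 0.56. Their sum was 1379.7 to 2022 CPM in the extravascular libraries and 1182 to 1317 CPM in the intravascular libraries, without overlap. Cct3 stood at 182, 259, 301 and 283 CPM in the extravascular libraries and 117, 171, 153 and 136 CPM in the intravascular libraries. The gates were apart and Cct3 rose (log2 fold change 0.83, SE 0.17, adjusted p = 0.0451, and 0.0485 with mouse as a fixed block). Cct4 rose from 82.2 ± 5.9 to 124 ± 16 CPM (log2 fold change 0.60, adjusted p = 0.0336), although its sign was the opposite with uncentred log10 means, as was that of Hspb8 and of the median of the list. Cct5 did not overlap either (0.56, adjusted p = 0.0580). Hspb8, a small heat shock protein that helps clear misfolded proteins, stood at 75.7, 68.5, 103 and 102 CPM in the extravascular libraries and 59.1, 56.8, 49.9 and 45.97 CPM in the intravascular libraries. It rose (log2 fold change 0.72, SE 0.15, adjusted p = 0.0435), but not with mouse as a fixed block (adjusted p = 0.122) or with the offset for length (0.0567). Hspe1, the mitochondrial co-chaperonin, was the one member that did not overlap below (-0.38, adjusted p = 0.0704).

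The Hspb8 promoter is shown as that of a called heat shock gene that holds the heat shock element GAANNTTC, in capitals, at base 3 after the start. The window is GRCm38.p6 chr5:116422815-116423114, minus strand, from RefSeq.
Hspb8: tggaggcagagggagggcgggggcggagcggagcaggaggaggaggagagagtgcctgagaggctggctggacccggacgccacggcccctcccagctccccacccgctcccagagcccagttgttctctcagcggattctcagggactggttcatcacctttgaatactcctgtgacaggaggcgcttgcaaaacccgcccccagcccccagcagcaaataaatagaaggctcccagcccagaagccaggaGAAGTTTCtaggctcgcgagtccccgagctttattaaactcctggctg
The element was in 742 of 12047 promoters (6.16%) and in 9 of 25 heat shock genes with a promoter in the table (36%).

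The integrated stress response, in which ATF4 raises amino acid and redox genes when translation is slowed, had 1 lower call among 41 genes. That gene was Ppp1r15a (GRCm38 chr7:45522916-45526268, minus strand), also called GADD34, which directs the phosphatase that ends the response, and it is an immediate early gene as well. It stood at 15.97, 13.1, 9.82 and 9.32 CPM in the extravascular libraries and 41.8, 30.3, 36.6 and 44.2 CPM in the intravascular libraries. All extravascular values were below the intravascular ones, and Ppp1r15a fell 3.17-fold (log2 fold change -1.67, SE 0.21, adjusted p = 0.00682, and 0.0482 with mouse as a fixed block). It was read in 22.9% of extravascular and 42.2% of intravascular cells, and its gene overlaps Tulp2 on the other strand. Atf4 and Cebpb did not overlap in the opposite direction, at 0.80 and 0.89 with an adjusted p of 0.0722 for the former and 0.0721 for the latter, and Cebpb changed sign with uncentred log10 means. The extravascular and intravascular libraries of m5 were the highest of their gates for the summed list (2861 and 3171 CPM), which was 2126 to 2861 CPM in the extravascular libraries and 2309 to 3171 CPM in the intravascular libraries. Its site, searched as TGATGNAA, was in 13 of 34 promoters of the list (38.2%) and in 2.71% of all, and not in the window of Ppp1r15a.

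Apoptosis regulators had 3 lower and no higher calls among 31 (9.68% lower, against 0.535% of all genes tested and 1.31% of genes at 10 CPM or more). Bad, which binds and inhibits BCL-2 proteins, fell from 134 ± 5.2 to 86.8 ± 7.9 CPM (log2 fold change -0.63, adjusted p = 0.0231), and Cycs, which activates caspases once released, was described with the respiratory chain. Bmf, another BH3-only protein, had 227 reads over the intravascular libraries and 0 over the extravascular ones. Those reads came from 1.54% of intravascular cells. A count of 0 in 306 extravascular cells allows a share of up to 0.98% by counting error alone. No fold difference is stated, since the reads of a cell are not independent counts. The adjusted p of Bmf was 0.0461 (0.0613 with mouse as a fixed block). Among 37 antioxidant genes 3 fell (8.11%, against 1.31% of genes at 10 CPM or more), 6 (16.2%) did not overlap below and 3 (8.11%) above, against 8.2% and 6.96%, and the median was 0.02, of either sign among the alternatives. The list summed to 25717 to 31164 CPM in the extravascular libraries and 33713 to 37997 CPM in the intravascular libraries, without overlap. Ftl1, the light chain of ferritin that stores iron, was the most abundant lower gene, at 6110.4, 8126, 5392 and 6429.7 CPM in the extravascular libraries and 9606, 8605, 10167 and 10546 CPM in the intravascular libraries. It fell (log2 fold change -0.58, SE 0.11, adjusted p = 0.0355), with an antisense predicted gene over it. Gpx1 and Gpx4, which reduce hydrogen and lipid peroxides, fell from 3014 ± 154 to 2171 ± 234 CPM and from 1130.4 ± 75 to 799.8 ± 74 CPM, with log2 fold changes of -0.47 and -0.50 and adjusted p of 0.0413 and 0.0305. Nqo1, Gclc and Tkt did not overlap above, at 1.23, 1.43 and 0.60, with adjusted p of 0.111, 0.142 and 0.0565.

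The actin cytoskeleton, which drives migration, had 1 higher (1.56%) and 3 lower calls (4.69%) among 64 genes, against 1.03% and 1.31% of genes at 10 CPM or more, and a median of 0.14. The shares that did not overlap above and below were 10.9% and 7.81%, against 6.96% and 8.2%. Tmsb4x and Pfn1 encode proteins that bind actin monomers. Tmsb4x fell from 3594 ± 351 to 2374 ± 327 CPM (log2 fold change -0.60, adjusted p = 0.0253) and Pfn1 from 4348 ± 81 to 3448 ± 297 CPM (log2 fold change -0.33, adjusted p = 0.0451). Myl12a, a myosin light chain whose model overlaps Myl12b, fell from 497 ± 46 to 378 ± 24 CPM (log2 fold change -0.39, adjusted p = 0.0491). Rhoa, the GTPase that promotes stress fibres, rose from 152 ± 20.3 to 229.8 ± 27 CPM (log2 fold change 0.60, adjusted p = 0.0451). Arpc2, Tpm4 and Fscn1 did not overlap above, with values of 0.48, 0.50 and 0.57 and adjusted p of 0.0666, 0.0708 and 0.119. None of the 4 called genes passed with mouse as a fixed block, and 0 to 4 members passed in each direction with one library left out.

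Vim, an intermediate filament of mesenchymal cells, was the 1 call among 24 tubulins and intermediate filaments, 19 of which were above 0 (79.2%, against 53.3% of genes at 10 CPM or more, median 0.28), and among 28 mesenchymal genes and EMT factors (median -0.02). It stood at 1478, 1778, 1809.8 and 2219 CPM in the extravascular libraries and 1047, 1267, 1324 and 1176 CPM in the intravascular libraries. The gates were apart and Vim rose (log2 fold change 0.60, SE 0.11, adjusted p = 0.0305, and 0.0523 with mouse as a fixed block). The linker Plec had 0.48 (adjusted p = 0.0503) and Nes, another intermediate filament, 0.75 (adjusted p = 0.0602). Of 335 EMT genes of the study's own list, 4 rose (Vim, Rhoa, Plaur and Igfbp4) and 2 fell (Pfn1 and Mgp), 17 (5.07%) did not overlap above and 12 (3.58%) below, near the 3.88% and 4.61% of all genes tested, and the median was -0.03. None of 40 epithelial genes passed, and Krt8 and Dsp, the members with the smallest p, had 0.56 and -0.94 with adjusted p of 0.165 and 0.171.

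Plaur, the urokinase receptor that gathers proteolysis at the cell surface, was the 1 call among 36 matrix proteases and inhibitors. It stood at 99.1, 124, 134 and 151 CPM in the extravascular libraries and 46.4, 63.9, 59.8 and 37.4 CPM in the intravascular libraries. The lowest extravascular value exceeded the highest intravascular one, and Plaur rose 2.45-fold (log2 fold change 1.29, SE 0.21, adjusted p = 0.0253, and 0.0523 with mouse as a fixed block). It was read in 87.6% of extravascular and 83.4% of intravascular cells. Igfbp4, which binds insulin-like growth factors, rose from 222 ± 29.6 to 379.7 ± 76 CPM (log2 fold change 0.78, adjusted p = 0.0305). Mgp, a matrix protein that hinders calcification, fell from 189 ± 184 to 30.02 ± 14 CPM (log2 fold change -2.65, adjusted p = 0.0449), but 57.2% of its intravascular reads came from 1 cell. Its value with mouse as a fixed block had an adjusted p of 0.134. No call was made among 39 matrix and basement membrane genes, 37 integrin and focal adhesion genes or 16 genes of the study's extravasation list, of which Itgb1 had 0.30 (adjusted p = 0.116).

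The Plaur promoter is shown because it is the called protease gene with the AP-1 site TGANTCA, in capitals, at 69 bases before the start. The window is GRCm38.p6 chr7:24462233-24462532, plus strand, from RefSeq.
Plaur: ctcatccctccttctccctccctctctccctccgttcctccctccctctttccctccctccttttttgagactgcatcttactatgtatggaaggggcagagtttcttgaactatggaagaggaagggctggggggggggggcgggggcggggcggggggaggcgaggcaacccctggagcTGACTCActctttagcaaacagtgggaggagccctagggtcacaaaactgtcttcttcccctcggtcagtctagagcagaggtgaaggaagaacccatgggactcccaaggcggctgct
The site was in 730 of 12047 promoters (6.06%).

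**Figure D4:**
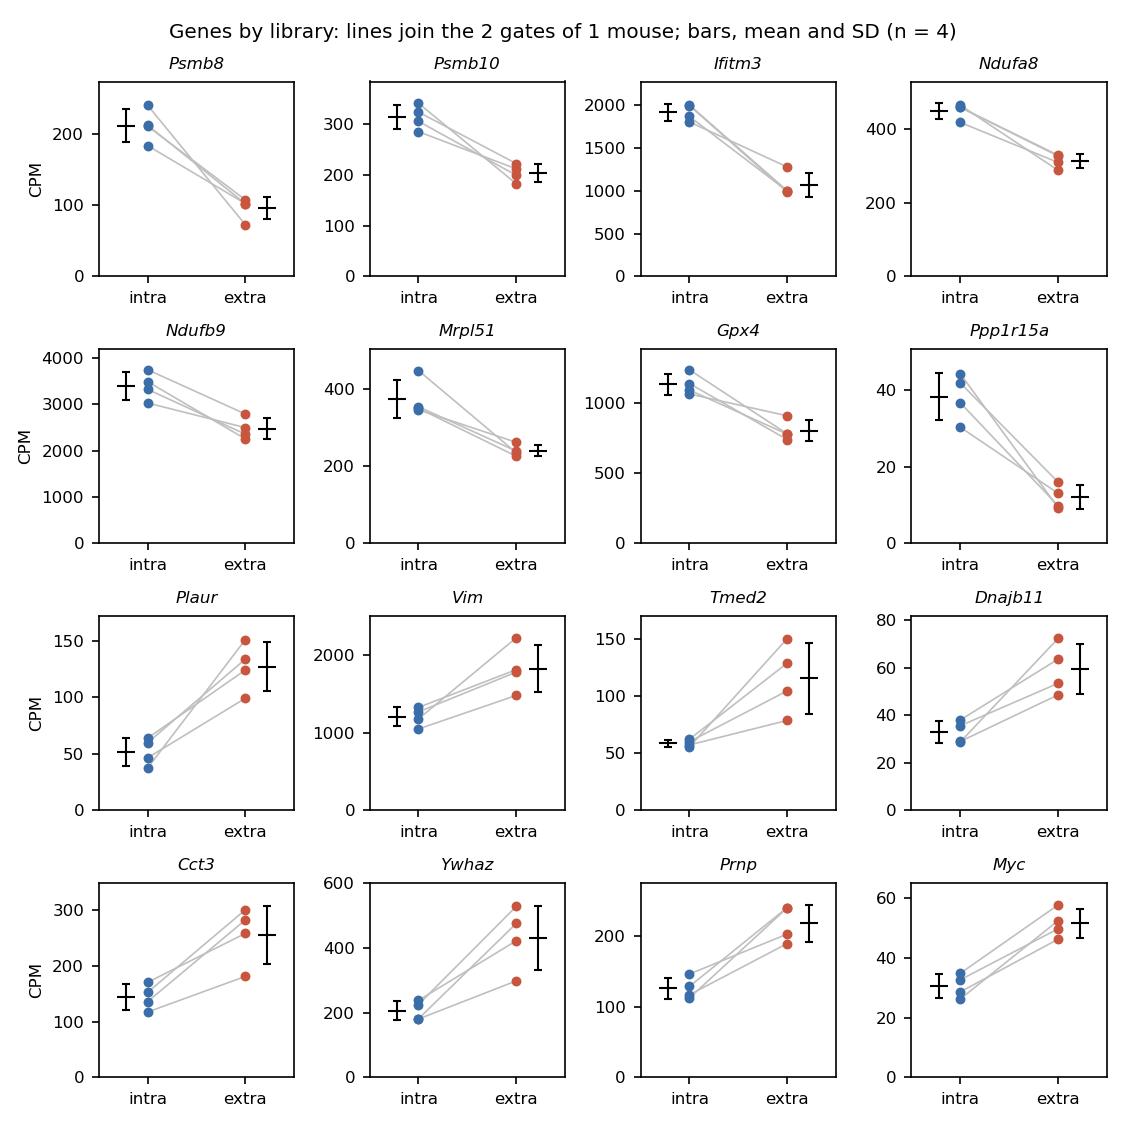
CPM (y axes, linear from 0) of 16 called genes in the intravascular and extravascular libraries, with 1 point per library, lines joining the gates of a mouse, and bars for the mean and SD of 4 libraries. In each of the 16 genes the 4 extravascular points lie on one side of the 4 intravascular points.

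Wnt receptors and co-receptors had no call among 17. Lrp5, a co-receptor of Frizzled proteins, came nearest, at 27.7, 35.3, 29.3 and 44.9 CPM in the extravascular libraries and 15.5, 18.5, 21.00 and 23.3 CPM in the intravascular libraries. Its gates did not overlap, and the test gave log2 fold change 0.81, SE 0.18, adjusted p = 0.0524. The study's Wnt list of 129 genes had 3 higher calls (Myc, Ppp2r1a and Rhoa) and no lower one, and a median of 0.02 that had the other sign in 8 of 19 alternatives. The list summed to 4387 to 4656 CPM extravascularly and 4005 to 4542 CPM intravascularly. Those gates overlapped, though the sum was higher extravascularly within each of m5 to m8. In it 9 genes (6.98%) did not overlap above, the share of genes at 10 CPM or more being 6.96%, and 2 below. Ppp2r1a, a scaffold of the phosphatase PP2A, rose from 176 ± 3.1 to 248 ± 16 CPM (log2 fold change 0.49, adjusted p = 0.0231). Among the 41 canonical Wnt genes Myc was higher and Jag1 lower, and among the 30 noncanonical ones Rhoa was higher. Of 23 targets and feedback genes Myc alone passed, and Axin2, the feedback gene often used as a readout, was at 0 in all 8 libraries. The study took its EMT and Wnt lists from MSigDB, a public collection of gene sets, and scored these same cells with them.

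Myc, the transcription factor that drives growth, stood at 57.6, 46.2, 52.4 and 49.7 CPM in the extravascular libraries and 34.8, 28.6, 26.2 and 32.6 CPM in the intravascular libraries. Every extravascular value lay above the intravascular ones, and Myc rose (log2 fold change 0.75, SE 0.14, adjusted p = 0.0314, and 0.0740 with mouse as a fixed block and 0.0601 with the offset for length). Of 37 Myc targets in metabolism and translation 28 were above 0 (75.7%, against 53.3% of genes at 10 CPM or more), with 1 call in each direction: Odc1, the first enzyme of polyamine synthesis, rose from 196 ± 23 to 309.6 ± 56 CPM (log2 fold change 0.66, adjusted p = 0.0449), and Nme1, a nucleoside diphosphate kinase, fell from 2511 ± 183 to 1945 ± 154 CPM (log2 fold change -0.37, adjusted p = 0.0493). No member of these targets passed with mouse as a fixed block or with the offset for length. The E-box CACGTG, which Myc binds with Max, was in 12 of 34 promoters of these targets (35.3%) and in 9.23% of all. Jag1, a Notch ligand, fell from 31.7 ± 6.3 to 16.1 ± 3.7 CPM (log2 fold change -0.98, adjusted p = 0.0451) and was the 1 call among 21 Notch pathway genes. It was read in 50.98% of extravascular and 71.4% of intravascular cells.

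Glycolysis and the citric acid cycle had no called gene, while their members leaned to higher values. In the citric acid cycle 22 of 24 genes were above 0 (91.7%, against 53.3% of genes at 10 CPM or more), with a median of 0.30, and in glycolysis 16 of 21 (76.2%), with a median of 0.29. Both medians kept their sign in 19 of 19 alternatives. In each list 1 gene did not overlap above (4.17% and 4.76%), under the 6.96% of genes at 10 CPM or more. The sums overlapped, at 2409 to 3362 CPM in the extravascular libraries and 2336 to 3137 CPM in the intravascular libraries for the cycle and 3438 to 5203 CPM in the extravascular libraries and 2929 to 4130 CPM in the intravascular libraries for glycolysis. In both lists m5 was the lowest library of either gate, and the other 3 extravascular libraries lay above every intravascular library. Within each of the 4 mice both sums were higher extravascularly. For m5 they were 2409 against 2336 CPM for the cycle and 3438 against 2929 CPM for glycolysis. Without the extravascular library of m5, 3 genes of the cycle and 3 of glycolysis passed as higher. Idh3a, a subunit of isocitrate dehydrogenase, had 57.5 ± 13 CPM against 29.97 ± 7.8 CPM (log2 fold change 0.94, adjusted p = 0.0624), and Cs, citrate synthase, 104 ± 29 CPM against 67.1 ± 6.3 CPM (log2 fold change 0.64, adjusted p = 0.0994). Gapdh and Pkm had adjusted p of 0.0947 and 0.131. Of 37 genes of cholesterol and fatty acid synthesis 29 were above 0 (78.4%), with a median of 0.23 that changed sign with uncentred log10 means, and Srebf2, the regulator of sterol synthesis, had 24.6 ± 4.0 CPM against 14.2 ± 1.4 CPM (log2 fold change 0.79, adjusted p = 0.0545). Of 62 lysosome and autophagy genes 8 (12.9%) did not overlap above and 3 (4.84%) below, against 6.96% and 8.2% of genes at 10 CPM or more, without a call. Psap, the precursor of saposins, and Ulk1, a kinase that starts autophagy, had 0.75 and -1.18 with adjusted p of 0.0537 and 0.0545.

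**Figure D5:**
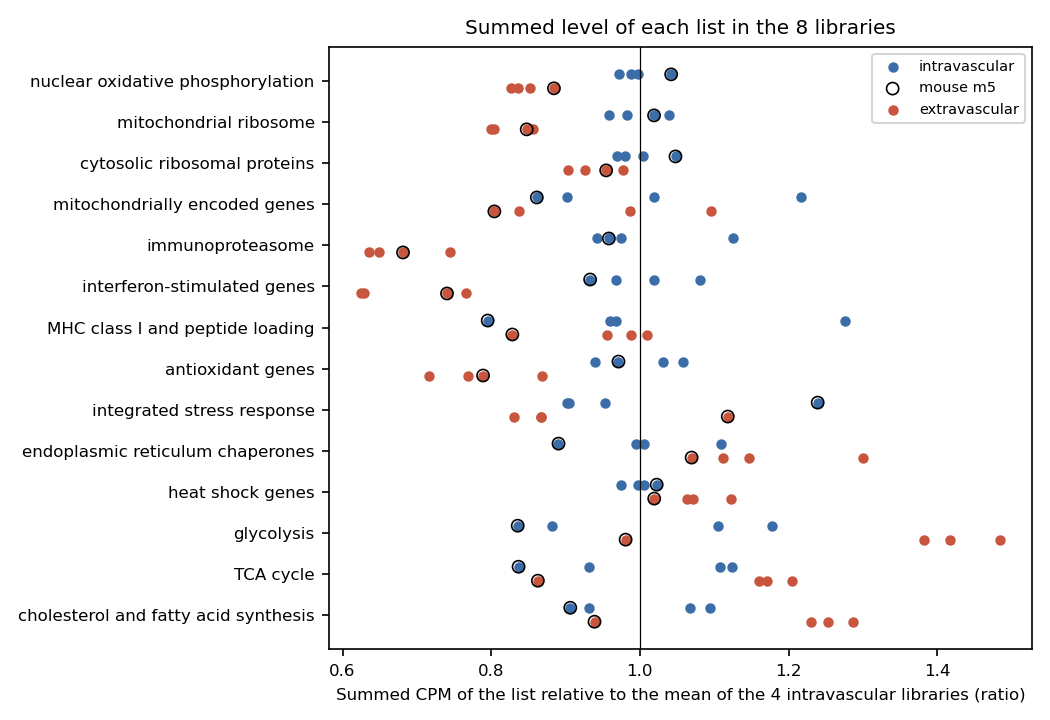
The x axis is the summed CPM of a list in a library divided by the mean of the 4 intravascular libraries, with 1 point per library and the libraries of m5 ringed. The extravascular points of the respiratory chain, mitochondrial ribosome, immunoproteasome, interferon-stimulated and antioxidant genes lie below the intravascular points. For glycolysis and the citric acid cycle those of m6, m7 and m8 lie above all intravascular points. That of m5 does not, though it lies above the intravascular point of m5.

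Calls among cell cycle genes were near the shares of genes at 10 CPM or more, 1.31% lower and 1.03% higher. In G2 and mitosis 1.85% were called in each direction. None of 43 S phase genes or 27 G1 regulators passed, with medians of 0.18 and 0.20. Of 54 genes of G2 and mitosis Ube2c, which marks mitotic cyclins for destruction, fell from 446 ± 58 to 254 ± 43 CPM (log2 fold change -0.81, adjusted p = 0.0314, and 0.0413 with mouse as a fixed block), while Tacc3, which stabilises the spindle, rose from 33.9 ± 4.4 to 62.9 ± 6.2 CPM (log2 fold change 0.89, adjusted p = 0.0441). Kpna2, an importin, was the 1 call among 42 nuclear pore and transport genes and fell from 28.2 ± 4.1 to 12.6 ± 0.29 CPM (log2 fold change -1.17, adjusted p = 0.0196). Of 94 splicing factors 17 (18.1%) did not overlap above and 4 (4.26%) below, against 6.96% and 8.2% of genes at 10 CPM or more, and 2 rose (2.13%, against 1.03%): Hnrnpf from 43.4 ± 7.1 to 74.8 ± 13 CPM (log2 fold change 0.79, adjusted p = 0.0444), which changed sign with uncentred log10 means, and Sf3b4 from 30.6 ± 5.0 to 49.6 ± 5.4 CPM (log2 fold change 0.70, adjusted p = 0.0470). Their median of 0.07 also changed sign on both log10 scales. Among 54 translation factors Eif3d rose from 51.4 ± 5.4 to 86.9 ± 15 CPM (log2 fold change 0.76, adjusted p = 0.0305) and Eif1ax fell from 383 ± 52 to 259 ± 17 CPM (log2 fold change -0.56, adjusted p = 0.0326).

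Ift172, which carries cargo along the primary cilium, stood at 67.2, 56.1, 69.5 and 62.1 CPM in the extravascular libraries and 120.2, 109, 132 and 118 CPM in the intravascular libraries. The gates were apart, and Ift172 fell (log2 fold change -0.91, SE 0.13, adjusted p = 0.0137, and 0.0459 with mouse as a fixed block), as the 1 call among 38 cilium genes. Their median was -0.12, from -0.22 to -0.03 with one library left out, -0.02 with thinned cells and -0.07 with the offset for length. It was read in 62.4% of extravascular and 82.2% of intravascular cells. Bhlhe41, a repressor of the clock, fell from 73.9 ± 6.4 to 41.3 ± 8.6 CPM (log2 fold change -0.84, adjusted p = 0.0324) and was the 1 call among 19 clock genes (median -0.29).

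The most abundant genes called in each direction added to these groups. Ywhaz, the 14-3-3 zeta adaptor, stood at 298, 422, 528 and 475 CPM in the extravascular libraries and 180.1, 238, 225 and 181 CPM in the intravascular libraries. Its gates were far apart and it rose 2.09-fold (log2 fold change 1.06, SE 0.18, adjusted p = 0.0253, and 0.0459 with mouse as a fixed block). Sirt5, a mitochondrial deacylase, rose from 1610.3 ± 253 to 2408 ± 194 CPM (log2 fold change 0.58, adjusted p = 0.0302), though not with the offset for length (0.0511). Noct, which removes phosphate from NADP(H), rose from 503 ± 67 to 695 ± 39.6 CPM (log2 fold change 0.47, adjusted p = 0.0385), and the prion protein gene Prnp rose from 126 ± 15 to 218 ± 26 CPM (log2 fold change 0.79, adjusted p = 0.0223). Dynll1, a dynein light chain, fell from 3452 ± 179 to 2317 ± 156 CPM (log2 fold change -0.58, adjusted p = 0.0249) and also passed with mouse as a fixed block (adjusted p = 0.0459).

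No call was made in 20 of the 53 pathway and study lists. Among them were NF-kB targets (49 genes, median 0.10), STAT3 signalling (23, -0.02), TGF-beta targets (37, -0.09), YAP/TEAD targets (33, -0.20), hypoxia targets (28, 0.22), the EGF receptor family (20, 0.07), p53 targets (20, -0.06) and chromatin genes (59, -0.02). Of these 8 medians that of the YAP/TEAD targets kept its sign in 19 of 19 alternatives and the other 7 did not, but within m5 to m8 it was 0.28, -0.09, -0.10 and -0.08. The hypoxia median had the other sign in 5 of 19, was -0.0064 without the extravascular library of m5 and -0.0034 without that of m6, and within m5 to m8 it was -0.043, -0.16, -0.022 and -0.19. The members with the smallest p were Cebpb and Tnfaip2 for NF-kB, Pim3 and Junb for STAT3 (0.92 and 0.60), Tgfb1 for TGF-beta (0.90), Asap1 and Amotl1 for YAP (-0.55 and -0.57) and Hif1a and Slc2a1 for hypoxia (0.49 and 1.03). Their adjusted p ran from 0.0624 for Pim3 to 0.146 for Slc2a1. Loxl1 of the matrix list had -2.56 (adjusted p = 0.0569) at 0.766 ± 0.77 CPM against 4.56 ± 2.1 CPM. Btg2 of the p53 targets had -1.53 (adjusted p = 0.0810), and Kdm1a of the chromatin list -0.56 (adjusted p = 0.112).

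The medians over single cells had the same order for the respiratory chain, the mitochondrial ribosome and the immunoproteasome. The summed CPM of the respiratory chain in a cell had medians of 40836 to 45570 over extravascular cells of the 4 mice and 44879 to 52389 over intravascular cells, which overlapped between mice but were higher intravascularly in each. That of the mitochondrial ribosome was 11564 to 12778 and 13731 to 14883, and that of the immunoproteasome 862 to 1058 and 1137 to 1359, both without overlap. The quartiles of the cells overlapped in each case. For the cytosolic ribosomal proteins the cell medians were higher extravascularly in m6, m7 and m8 (133290, 120860 and 132510 CPM against 130840, 118650 and 124780 CPM) and lower in m5 (135210 against 139750 CPM). Across the 69 to 84 cells of a library, Spearman's rho of the respiratory chain with the mitochondrial ribosome was 0.33 to 0.66 over the 8 libraries, with cytosolic ribosomal proteins 0.71 to 0.83, and with endoplasmic reticulum chaperones -0.58 to -0.29. The immunoproteasome and interferon-stimulated genes had a rho of 0.20 to 0.43, and the immunoproteasome and constitutive proteasome one of 0.37 to 0.58 intravascularly and -0.0046 to 0.35 extravascularly. These values are descriptions, since the cells of a library share its preparation and the lists share each cell's depth.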

How the data were processed

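Single tumour cells were sorted into plates and sequenced as SMART-Seq2 libraries without molecular identifiers. The authors made the deposited estimated counts with salmon 0.7.2 and GRCm38 (aligner and build per the labels and the study's methods, annotation release not given in the sources used here). They also deposited log10 values of the cells that passed their filters, scaled per cell to housekeeping genes, which served here as an alternative only. Mouse and gate were taken from the annotation the authors deposited.

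Counts of kept cells were summed by mouse and gate and rounded. Genes passing filterByExpr were fitted in edgeR 4.0.16 (R 4.3.3) over all 13 lung tumour cell libraries, with TMM scaling, a quasi-likelihood test of extravascular minus intravascular and Benjamini-Hochberg adjustment over all 19249 genes at 0.05. Beside the libraries compared, these were latent cells of m9 to m12 and proliferative cells that the annotation gives to m12. Those mice were taken on a later day, and their libraries entered the filter, the scaling and the shared estimate of the spread. The design has 9 residual degrees of freedom. On simulated counts 64% of 200 genes changed 2-fold were recovered in this comparison, and 7.25% of the calls were genes simulated without a change. Alternatives were DESeq2 1.42.0, limma 3.58.1, other scalings and filters, thinning to 200000 reads per cell, an offset for transcript length chosen after the data had been seen, and omission of each library. Both gates came from the same 4 mice, which pairs the libraries. Deviations from the gate means correlated at 0.24, 0.07, 0.06 and -0.03 within m5 to m8 over 6720 genes.

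A gene was called at an adjusted p under 0.05. Fold changes are extravascular over intravascular and CPM uses the TMM factors. Up to 4 called members of each list with the smallest p were named, up to 2 members of a list without a call, the 10 most abundant called genes in each direction, and other members where a range or part of a list is given, and 1 gene the rule names is not reported here. Members and lists were chosen with earlier results of these data known, so lists are described by counts and medians, with no test over a list. Coordinates are from GENCODE vM21 (GRCm38) and promoters from RefSeq. Endothelial cells were not analysed here.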

Additional observations from a re-analysis of the deposited data

Results flagged for a closer look

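A library far from the other 3 of its gate was found in 23 of 268 groups of 4 libraries that were looked at, over named genes and list sums, where chance alone gives about 1 in 20. The extravascular library of m5 accounts for 11 of the 23. In it Ifitm3 was 1276 CPM (others 985 to 999) and Mgp 51.2 CPM (others 20.9 to 25.98), while H2-K1 was 225.5 CPM (others 338.5 to 360) and E2f4 21.1 CPM (others 31.3 to 32.2). The same library had summed levels of 2861 CPM for the integrated stress response, 1698 CPM for immediate early genes, 2615 CPM for NF-kB targets and 220.3 CPM for the circadian clock, each above the other 3. Its sums were below the other 3 for integrins and focal adhesions (2736 CPM), the citric acid cycle (2409 CPM) and cholesterol and fatty acid synthesis (1147 CPM).

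Among the other extravascular libraries, that of m7 stood apart with 72.7 CPM of Psmb8 (others 102 to 108) and 743 CPM over the cilium genes. In the intravascular libraries Mrpl51 and Slc2a1 were high in m5 (447 and 19.03 CPM), as was the integrated stress response (3171 CPM). Psmb6 was high in m6 (987 CPM) and the mesenchymal list low there (6959 CPM). Mrpl9 and the NF-kB targets were high in m7 (34.2 and 2864 CPM). In m8 Asap1 was high (151 CPM), and Ndufa8 and the splicing factors were low (419 and 12851 CPM).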

How the results depend on the processing

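The count of called genes, 183, was 1325 with DESeq2, 2046 with means of the authors' log10 values and 1402 with those means centred, 63 with only the 8 libraries compared, 34 with mouse as a fixed replicate block and 418 with mouse as a random block, and 8 to 518 with one library left out. It stayed within 1.5 times with relative log expression factors (182, of which 179 were among the 183), thinned cells (166, 107 shared), no filter on low counts (142, 141 shared), cells over the mitochondrial limit removed (200, 143 shared) and the offset for transcript length (190, 134 shared). The cause of these moves was not tested, except that the fits of fewer libraries have fewer residual degrees of freedom. Of the 59 called genes chosen by the naming rule, 59 stayed past the threshold in their direction with DESeq2, 58 with the random block, 13 with the fixed block, 25 with only the 8 libraries, 58, 41, 51, 47 and 46 with the 5 settings that kept the count within 1.5 times, in the order given, and 4 to 59 with one library left out. On means of log10 values Cct4 (-0.22), Hnrnpf (-0.13), Hspb8 (-0.23), Cebpb (-0.14) and Fasn (-0.33) changed sign, and on centred means Fasn (-0.10) and Etv5 (0.081) did. H2-K1, near 0, was positive with log10 means (0.10), centred means (0.34), the length offset (0.051) and the fixed and random blocks (0.037 and 0.0503), and ran from -0.18 to 0.22 with one library left out. Medians of the respiratory chain, mitochondrial ribosome, immunoproteasome, interferon-stimulated genes, endoplasmic reticulum chaperones, glycolysis and citric acid cycle kept their sign in 19 of 19 alternatives, though with one library left out that of the interferon-stimulated genes ran from -0.57 to -0.04 and that of the chaperones from 0.18 to 0.35. Genes read in few cells, such as Bmf and Cxcl9, are limited by the number of cells, and the lane cannot be told apart from the gate.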
